A study of Rattus norvegicus with 89 samples.

Results

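The kidneys of saline-treated rats after 5 days of dosing were compared with those after 1 day of dosing, as the control groups against which the compounds of the series were read. The members were chosen by their titles, which name 5 rats dosed for 5 days with saline and 7 rats dosed for 1 day, 12 of the 89 rats in all. Every rat was a Sprague-Dawley Crl:CD(SD) animal aged 7 to 8 weeks at the start, housed singly, and dosed daily, and neither the volume of saline nor the hour of autopsy is in the labels. The day 1 group held 3 males and 4 females and the day 5 group 3 males and 2 females. RNA came from the apical parts of both kidneys of a rat, homogenised together, and each rat gave 1 Affymetrix array. The other 77 rats used for background were 6 naive rats, which received nothing, and 71 rats dosed for 1 or 5 days with gentamicin, tobramycin, cisplatin, cadmium, doxorubicin or valproic acid.

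The titles were not the only label of a rat. Rat 1F104 is titled day 1 and carries no treatment text, and its animal number precedes those of the day 5 females 1F105 and 1F106. The series' design text gives each group 3 males and 3 females, which the saline groups would hold if 1F104 were at day 5. Rat 1M2 is titled day 1 while its treatment text reads 5 days, and 1M4, titled day 5, has no treatment text. All were kept as titled. Counts over all genes are given both ways, and so are the named genes that moved most.

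A saline group is a vehicle control: it carries the handling, dosing and sampling of the study without a drug. The kidney is also a tissue with a strong circadian clock, in which the activators Bmal1, Clock and Npas2 drive the Per, Cry and Nr1d1 repressors and the output factors Dbp, Tef and Hlf. Bmal1 and Dbp peak at nearly opposite times of day, so the kidney's clock transcripts differ between samples taken at different hours.

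Signals are intensities on a linear scale after all arrays were brought to the same trimmed mean (180.9), and differences are on the scale of log2(signal + 16), day 5 minus day 1. Before that scaling, the trimmed mean of the saline arrays lay between 116 and 352. The day 5 arrays averaged 172 ± 37.1 (SD, n = 5) and the day 1 arrays 217 ± 80.3 (SD, n = 7), with an exact two-sided permutation p of 0.295. Array 1F106 stood apart. Its rank correlation with the other saline arrays had a median of 0.937, against medians of 0.958 to 0.968 for the other 11. Its GAPDH 3'/5' signal ratio, a measure of RNA integrity and labelling, was 2.99, and its beta-actin ratio was 10.5, each the highest of all 89 arrays. The other 11 saline arrays had GAPDH ratios of 1.195 to 1.50 and beta-actin ratios of 2.41 to 4.40. Neither ratio passed the test between the saline groups (exact two-sided permutation p = 0.295 for GAPDH and 0.444 for beta-actin), and without 1F106 their means were 1.34 and 1.31 for GAPDH. With 12 arrays, the number of rats limits the precision of every value.

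**Figure D1:**
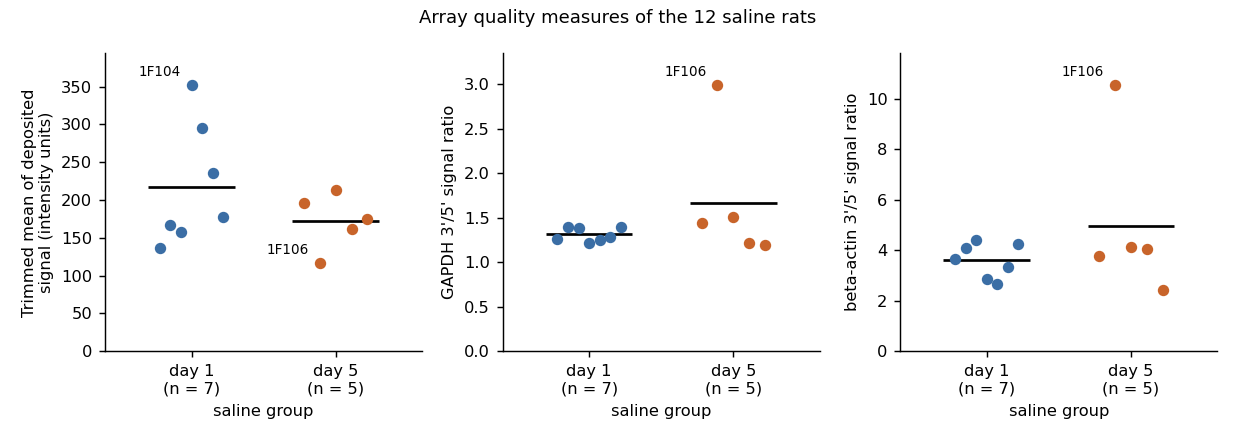
Trimmed mean of the deposited signal and the 3'/5' signal ratios of GAPDH and beta-actin in each saline rat, with group means as lines (7 rats at day 1, 5 at day 5). Rat 1F106 is the lowest in trimmed mean at 116 and the highest in both ratios, at 2.99 and 10.5.

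Across the kidney transcriptome no gene passed the test between the saline groups. Of 10564 genes tested, 0 (0%) had an adjusted p under 0.05 in limma with Benjamini-Hochberg adjustment, and the smallest adjusted p was 0.790. At an unadjusted p under 0.05 there were 477 genes (4.52%), 258 higher and 219 lower at day 5, where an even spread of p-values would place 528.2. The p-values were not evenly spread. Bins of width 0.05 from 0.05 to 0.25 held 686, 724, 738 and 709 genes, and the last bin held 399. The even-spread count is therefore a loose guide, and the cause of the uneven spread was not tested. In the fit on all 89 arrays, which shares the spread of 15 groups, 0 genes passed again, with 848 (8.03%) at an unadjusted p under 0.05 and a smallest adjusted p of 0.488. Leaving out any 1 saline rat, leaving out 1F104 or 1M2, or counting either at day 5 gave 0 genes as well.

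The size of the differences was small for most of the transcriptome. The median difference was 0.01 and 9400 genes (88.98%) differed by less than 0.25. The median standard error of a gene was 0.12 and the median 95% interval reached 0.26 to either side. For 10343 genes (97.9%) the whole interval lay between -1 and 1, so a change of that size in either direction was outside the interval. For a gene of median precision, a difference under 0.26 could not be told from 0 by its unadjusted 95% interval with these 12 rats. After adjustment larger differences also did not pass, such as Cyp26b1 at 0.68 (SE 0.16, adjusted p = 0.790 in limma).

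**Figure D2:**
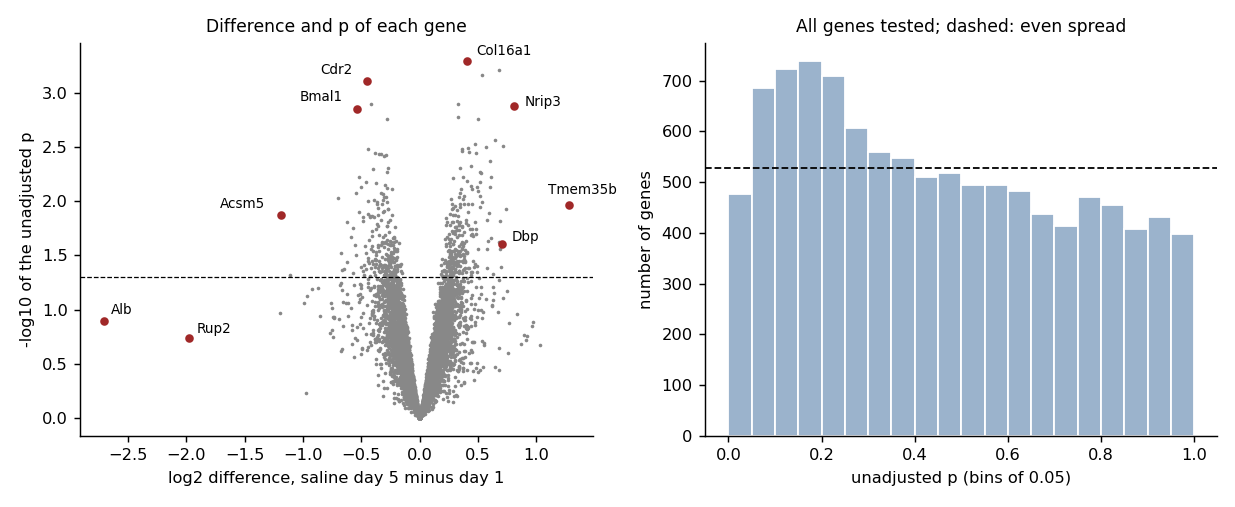
Left, each gene's log2 difference between saline at day 5 and at day 1 against -log10 of its unadjusted limma p-value, with a dashed line at 0.05. Right, the number of genes in each p bin of width 0.05 for all 10564 genes, where the first bin holds 477 and the dashed line marks an even spread of 528.2. The fullest bin, from 0.15 to 0.2, holds 738 and the last holds 399.

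The genes with the smallest p on the higher side included a matrix protein, a retinoid enzyme and a lipid carrier, and none passed. Col16a1 (chromosome 5, 147672559 to 147727007 on GRCr8), a fibril-associated collagen chain, had signals of 164, 134, 120.2, 132.3 and 145.7 in the day 5 rats 1F105, 1F106, 1M4, 1M5 and 1M6. In the 7 day 1 rats its lowest, median and highest signals were 87.7, 107 and 125. The groups overlapped only in that 1M4 lay below 1F102, and the difference was 0.41 (SE 0.09, unadjusted p = 0.000506, adjusted p = 0.790 in limma). Cyp26b1 (chromosome 4, 118599356 to 118616176), which breaks down retinoic acid, was at 219, 329, 235, 202 and 246 at day 5 and between 97.2 and 201 at day 1, with a difference of 0.68 (SE 0.16). Naive rats averaged 219 ± 54.2 (SD, n = 6) for Cyp26b1, within the range of the day 5 saline rats. Its mean difference in the compound-treated rats was -0.14, higher at day 5 in 4 of 6 compounds.

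The other genes of this set were Rnf182, Fabp3, Nrip3, Fstl1, Slc6a4, Capg, Gpr155 and Dusp23, with differences of 0.33 to 0.81. Nrip3 had the largest, 0.81 (SE 0.20), from a day 1 range of 84.4 to 336 to a day 5 range of 193 to 339. Its highest day 1 value was that of 1F104. Fabp3, the heart-type fatty acid binding protein, was 2027 ± 471 (SD, n = 5) against 1720 ± 354 (SD, n = 7). Slc6a4, the serotonin transporter, was at 34.5 in 1F105 and 64.8 to 77.3 in the other day 5 rats, against 23.4 to 61.2 at day 1.

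On the lower side the smallest p belonged to Cdr2, Odc1, Bmal1, Dpp4, Chd1l, Rnmt, Kctd6, Rmdn3, Enpep and E2f5, again with none passing. Another probe set of Rnmt, with a mean saline signal of 250 against 276, differed by only -0.0067. Those of Dpp4 and Chd1l differed by -0.26 and -0.58. Odc1 (chromosome 6, 46058439 to 46065148), the ornithine decarboxylase that starts polyamine synthesis, was at 3016, 3319, 2443, 2954 and 2419 in the day 5 rats and between 3030.4 and 4901 at day 1, with a median of 3791. Only 1F106 among the day 5 rats lay above the lowest day 1 rat, and the difference was -0.42 (SE 0.10, adjusted p = 0.790 in limma). Naive rats, at 3055 ± 653 (SD, n = 6), were nearer to the day 5 mean of 2830 than to the day 1 mean of 3890. Cdr2 averaged 499 ± 69.7 (SD, n = 5) against 675 ± 82.1 (SD, n = 7), a difference of -0.45 that became -0.36 without 1F106. Its naive mean, 633 ± 56.3 (SD, n = 6), was nearer to day 1. The brush-border peptidases Dpp4 and Enpep differed by -0.28 and -0.29, and Enpep by -0.15 with 1F104 counted at day 5. Chd1l, a chromatin remodeller, moved from -0.44 to -0.29 in the same setting, and Rmdn3 from -0.35 to -0.23 without 1F106. Rat 1F106 was the extreme of the day 5 rats in 7 of the 10 higher genes and in 8 of the 10 lower ones, and its part in these differences was not tested.

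A different view is which genes kept the groups wholly apart. Among 10564 genes some do so by chance alone in groups this small. The count below was not tested against that share and is not read as a difference between the groups. For 10 genes (0.0947%) every day 5 rat lay on one side of every day 1 rat, 2 higher (Cyp26b1 and Dusp7) and 8 lower (Fastkd2, Nkiras1, Ccnl2, Eif2b5, Chd9, Dhx16, Creb3 and Lmbr1); apart from Cyp26b1 these were named after their values were seen. Nkiras1, an inhibitor of NF-kappa-B signalling, had the tightest groups: 68.5, 71.4, 70.2, 68.5 and 64.9 at day 5 and between 80.4 and 86.1 at day 1. Its difference was -0.23 (SE 0.08, unadjusted p = 0.0134). Naive rats averaged 69.8 ± 4.92 (SD, n = 6), beside the day 5 rats. For Dhx16 the naive mean of 230 ± 25.4 (SD, n = 6) was instead nearer to day 1 (239) than to day 5 (205). Dusp7, a phosphatase that acts on MAP kinases, was between 314 and 377 at day 5 and between 279 and 306 at day 1, a difference of 0.16. The 9 genes other than Cyp26b1 differed by at most 0.28 in size.

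Most clock outputs and repressors had higher means at day 5 and the activator list had lower ones, but 0 of 19 measured members passed. Of 14 measured output and repressor genes, 11 were higher at day 5 with a median of 0.22, and of 5 genes of the activator list, which also holds the late repressor Cry1, 0 were higher with a median of -0.25. The 3 lower among the outputs and repressors included Bhlhe40, at -0.27, and in females alone the output count was 9 of 14. Each gene is counted by 1 probe set. Nr1d2 counts as higher at 0.27, while another of its probe sets, with a mean saline signal of 346 against 633, differed by -0.06. Over all genes tested, 5672 were higher, 4892 were lower and the median was 0.01. The counts were 12 of 14 and 0 of 5 without 1F106, 11 of 14 and 0 of 5 with 1F104 left out or counted at day 5, and the same with 1M2 left out or counted at day 5. Without array scaling the output count turned to 3 of 14, as the median of all genes itself moved to -0.29. The median of the output genes there was -0.09, still above that of all genes.

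Promoters of the clock members with the smallest p are shown because their motifs are those through which the clock loop acts: the E-box CACGTG and its variant CATGTG are bound by Bmal1 with Clock, the element TAGGTCA by Nr1d1 and Rora, and the D-boxes TTATGTAA and TTACGTAA by Dbp, Tef and Hlf. Each run is 300 bases from RefSeq on GRCr8, from 250 bases before a transcript start to 50 after it, 5′ to 3′ on the gene's strand, with any of the 5 motifs found on either strand in capitals.
Bmal1, chr1:176766078-176766377, plus strand: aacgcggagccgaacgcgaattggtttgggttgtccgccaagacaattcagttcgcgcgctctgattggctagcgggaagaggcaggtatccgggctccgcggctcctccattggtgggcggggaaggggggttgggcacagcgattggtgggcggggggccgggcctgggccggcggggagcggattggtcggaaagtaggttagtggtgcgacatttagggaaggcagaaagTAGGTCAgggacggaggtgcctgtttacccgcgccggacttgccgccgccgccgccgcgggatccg
Nr1d1, downstream start, chr10:84229405-84229704, minus strand: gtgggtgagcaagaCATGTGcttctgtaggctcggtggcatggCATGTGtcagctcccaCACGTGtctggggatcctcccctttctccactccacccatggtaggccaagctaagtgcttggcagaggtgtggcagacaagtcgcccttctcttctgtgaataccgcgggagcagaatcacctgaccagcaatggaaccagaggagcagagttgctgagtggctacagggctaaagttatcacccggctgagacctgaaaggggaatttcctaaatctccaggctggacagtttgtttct
Nr1d1, upstream start, chr10:84231763-84232062, minus strand: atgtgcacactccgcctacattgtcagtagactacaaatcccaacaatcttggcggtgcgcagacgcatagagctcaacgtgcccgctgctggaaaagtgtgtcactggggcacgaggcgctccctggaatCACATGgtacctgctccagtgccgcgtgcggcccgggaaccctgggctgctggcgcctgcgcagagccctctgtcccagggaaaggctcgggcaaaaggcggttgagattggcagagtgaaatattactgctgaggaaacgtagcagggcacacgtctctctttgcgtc
Dbp, chr1:105312006-105312305, plus strand: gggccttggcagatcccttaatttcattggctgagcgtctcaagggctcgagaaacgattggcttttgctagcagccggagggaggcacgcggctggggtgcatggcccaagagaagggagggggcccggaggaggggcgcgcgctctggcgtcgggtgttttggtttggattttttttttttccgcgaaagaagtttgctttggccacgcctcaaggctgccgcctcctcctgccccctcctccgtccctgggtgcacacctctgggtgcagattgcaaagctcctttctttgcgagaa
The Bmal1 window held TAGGTCA beginning 16 bases before the start, a motif found in 2.63% of 33469 promoter windows of this length. The downstream Nr1d1 window held CACGTG (6.42% of windows) and CATGTG at 2 positions (13.97% of windows), and the upstream one held CATGTG on the opposite strand. The Dbp window held none of the 5, and neither did the windows of Per3 and Clock, also searched and not shown. This says only that these letters are not in those windows. D-boxes were in 0.893% (TTATGTAA) and 0.1195% (TTACGTAA) of windows. No entry was listed for Hlf. A match is a description of letters, not of binding.

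Among the activators, Bmal1 (chromosome 1, 176766222 to 176864741) was at 79.5, 57.9, 100.3, 123.7 and 78.8 in 1F105, 1F106, 1M4, 1M5 and 1M6. At day 1 its lowest, median and highest signals were 118.5, 123.1 and 156.8, so 4 of 5 day 5 rats lay below every day 1 rat and 1M5 lay inside the day 1 range. The difference was -0.54 (SE 0.14, 95% interval -0.83 to -0.25, unadjusted p = 0.00141, adjusted p = 0.790 in limma) and it was -0.41 without 1F106. Clock, its partner, was 352 ± 82.4 (SD, n = 5) against 384 ± 56.7 (SD, n = 7), a difference of -0.20 that was -0.13 without 1F106. Npas2, which can take the place of Clock, differed by -0.12 (SE 0.16), and by -0.22 with 1M2 counted at day 5. Rora, an activator of Bmal1, differed by -0.25 with 1F106 and by -0.04 without it.

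Among the output factors, Dbp (chromosome 1, 105312256 to 105317205) was at 415, 129.1, 228, 179 and 450.4 in the day 5 rats, in the same order. Its day 1 signals had a lowest value of 115.4, a median of 124.4 and a highest of 238, and only 1F105 and 1M6 at day 5 exceeded every day 1 rat. The difference was 0.71 (SE 0.28, 95% interval 0.10 to 1.32, unadjusted p = 0.0249, adjusted p = 0.790 in limma). Leaving out 1 rat at a time gave 0.43 (without 1F105) to 0.97 (without 1F106). Tef, a PAR bZIP factor like Dbp, was 293 ± 38.3 (SD, n = 5) against 245 ± 58.1 (SD, n = 7), and Hlf was 701 ± 236 against 529 ± 199.6. Their differences were 0.21 and 0.27, which became 0.13 for Tef with 1M2 at day 5 and 0.16 for Hlf with 1F104 at day 5. Another probe set of Hlf, with a mean saline signal of 186 against 601, differed by -0.12. A further Hlf probe set, with a mean of 413, differed by 0.21.

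Among the repressors, Nr1d1 (chromosome 10, 84224599 to 84231812), which shuts down Bmal1, was at 272, 182.96, 184, 149.1 and 210.4 at day 5 and between 88.1 and 187 at day 1. The difference was 0.53 (SE 0.18, unadjusted p = 0.0102), with the day 1 males at 145.9 to 187 overlapping the day 5 rats and the day 1 females at 88.1 to 153. Per3 was at 232, 50.9, 87.9, 93.1 and 155.5 against 31.5 to 100.3, a difference of 0.63 (SE 0.31). Per1 and Per2, the light-responsive period genes, differed by 0.20 and 0.09, both with intervals that included 0. Cry1, a late repressor, differed by -0.32 (SE 0.23).

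**Figure D3:**
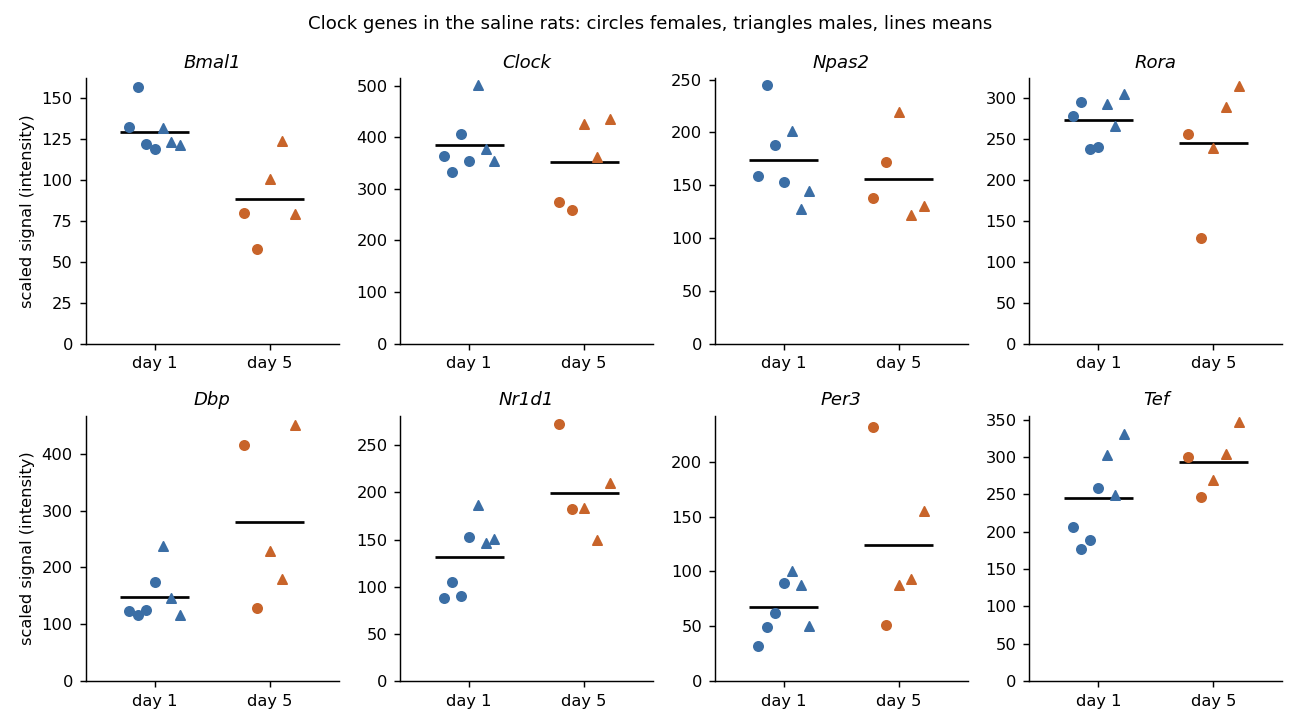
Scaled signal of 8 clock genes in each saline rat, activators above and outputs and repressors below, with females as circles, males as triangles and group means as lines. Bmal1 lies below 118.5 in 4 of 5 day 5 rats, and Dbp and Per3 exceed every day 1 rat in 1F105 and 1M6.

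The same interval was also sampled in rats that the saline comparison does not use. In the 71 compound-treated rats, the mean day 5 minus day 1 difference over 6 compounds passed for 18 genes (0.17%), 5 higher and 13 lower at day 5, and 12 of the 18 had the same sign in saline. Of these genes, 4 were clock members: Tef at 0.26 (SE 0.04, adjusted p = 0.000788), Dbp at 0.44 (SE 0.11, adjusted p = 0.0484), Bmal1 at -0.44 (SE 0.10, adjusted p = 0.0219) and Npas2 at -0.42 (SE 0.09, adjusted p = 0.0219), all in limma. Dbp and Tef were higher at day 5 in 6 of 6 compounds, and Bmal1 and Npas2 were lower in 6 of 6. The saline values beside them were 0.71 for Dbp, 0.21 for Tef, -0.54 for Bmal1 and -0.12 for Npas2. Whether these genes passed changed as single compounds were left out, while their differences kept their sign. With 1 compound left out, Bmal1 lay between -0.42 and -0.46 and Dbp between 0.40 and 0.49. Without doxorubicin none of the 4 passed in limma: Tef was at 0.21 (adjusted p = 0.0736), Dbp at 0.41 (adjusted p = 0.174), Bmal1 at -0.42 (adjusted p = 0.112) and Npas2 at -0.36 (adjusted p = 0.169). Dbp also missed the threshold without gentamicin, cisplatin, cadmium or valproic acid, Bmal1 without gentamicin, cisplatin or cadmium, and Npas2 without cadmium or valproic acid. The count of genes fell to 3 without doxorubicin, 6 without cisplatin and 7 without cadmium, and to 1 with valproic acid alone.

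Outside the clock, Rbm3, a cold-inducible RNA-binding protein, rose by 0.26 (SE 0.05, adjusted p = 0.00648) in the compound-treated rats. In saline it was at 1165, 1534, 1048, 1035 and 1030 at day 5 and between 732 and 1090 at day 1, a difference of 0.36 (SE 0.10, unadjusted p = 0.00344), and it was named after its values were seen. Lox, the enzyme that cross-links collagen, fell by 0.36 in the compounds (adjusted p = 0.00149) and differed by -0.37 in saline (unadjusted p = 0.0348). Dhcr7, the last enzyme of cholesterol synthesis, differed by -0.36 in the compounds and by -0.22 in saline, where it was -0.12 with 1F104 counted at day 5.

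The test of the difference between saline and the compounds passed for 1 gene (0.00947%). Hbb, a beta globin of red blood cells with near-identical copies that the probe set may also read, differed by -0.05 in saline and by -0.98 in the compounds, and saline minus compounds was 0.95 (adjusted p = 0.0161 in limma). The compound value rests on doxorubicin at day 5, where Hbb was 68.3 ± 6.43 (SD, n = 5), against 4938 ± 494 (SD, n = 5) in saline at day 5. Without doxorubicin, saline minus compounds was 0.059 (adjusted p = 0.974). The call was also lost with 1F104 left out or counted at day 5, and without 1M4, 1M6, 1F103 or 1F106. None of the clock genes passed this test.

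**Figure D4:**
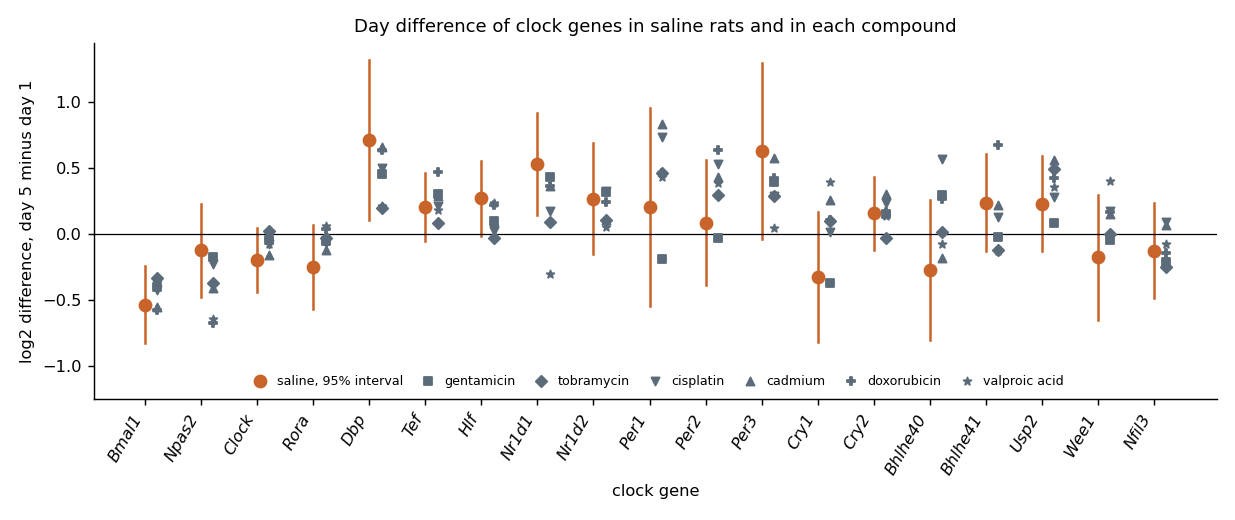
Log2 difference between day 5 and day 1 of the 19 measured clock genes in saline (orange point with its 95% interval) and in each of 6 compounds (grey marks). Bmal1 lies below 0 and Dbp above 0 in saline and in all 6 compounds.

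Saline was also the lowest of the 7 treatments in Dbp level. At day 1, Dbp averaged 148.2 ± 44.6 (SD, n = 7) in saline and was higher in each of the 6 compound groups, from 210.2 ± 67.0 (SD, n = 6) with gentamicin to 519 ± 141.6 (SD, n = 6) with valproic acid. The rats' codes begin with a numeral per treatment, 1 for saline, 2 gentamicin, 3 cisplatin, 4 tobramycin, 5 cadmium, 6 doxorubicin and 7 valproic acid. The group means of Dbp followed that numeral with a Spearman correlation of 1 at day 1 and 0.857 at day 5, over 7 groups each. Bmal1 followed it in the opposite sense, at -0.964 and -0.821, and Npas2 at -0.929 and -1. Several other clock genes kept the order on both days. Nr1d2 was at 0.964 and 0.857, Per3 at 1 and 0.857, and Tef at 0.893 and 0.857. Per2 was at 0.857 and 0.929, and Usp2 at 0.857 on both days. Clock was at -0.929 and -0.857, and Nfil3 at -0.929 on both days. The rest followed it less closely on at least 1 day, among them Per1, Cry2, Bhlhe41, Wee1 and Rora. Nr1d1 was at 0.964 and 0.464 and Hlf at 0.679 and 0.357. Bhlhe40 was at -0.107 on both days, and Cry1 at -0.643 and -0.036. The naive rats, coded 8, did not continue the order: their Dbp was 239.6 ± 110.97 (SD, n = 6) and their Bmal1 113.7 ± 34.1. These correlations describe group means and the pattern was chosen after the values were seen. Whether the hour of autopsy moved with treatment or with day was not tested, since the labels do not give it.

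Transcripts made by hepatocytes varied widely among the saline kidneys. A list of 31 hepatocyte markers, drawn up after their values were seen, had 23 members tested, of which 22 were lower at day 5 with a median of -0.57, against 0.01 over all genes. No member passed. Alb, the plasma protein albumin (chromosome 14, 17891564 to 17907043), was at 10.4, 9.89, 7.79, 1855 and 18.5 in 1F105, 1F106, 1M4, 1M5 and 1M6. At day 1 it was between 794 and 1482 in 5 rats, and at 12.2 in 1F104 and 8.71 in 1M1. So both groups held rats with and without the transcript, and 6 of 12 rats were high. The filter kept genes over its limit in at least 5 of 12 saline arrays. Apoc1, Apoa2, Fabp1 and Ahsg were over it only in the rats with high Alb, most of them at day 1. For such members a lower day 5 mean follows from which rats were high, so the 22 are not separate observations. The Alb difference was -2.71 with a standard error of 1.63 (unadjusted p = 0.128). With 1F104 counted at day 5 it was -3.41 (unadjusted p = 0.0362), and with 1M2 counted there -1.97.

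Several other hepatocyte transcripts were high in the same rats as Alb, and some were not. Rup2 was at 941 in 1M5 and 2.84 to 9.79 in the other day 5 rats, with a difference of -1.98 (-1.17 with 1M2 counted at day 5), and Cyp2c7, a liver cytochrome P450, was at 140.6 in 1M5 and 11.7 to 25.1 in the others, with a difference of -1.20. Of 30 markers on the array, between 23 and 27 exceeded a signal of 33.2 in the 6 rats with high Alb and between 4 and 7 did in the other 6. Among the exceptions, Fgg (153), Fga (240.0) and Cps1 (242), a urea cycle enzyme, were highest in 1F104, whose Alb was low, and Apoc3 was highest in 1F106 (538). Apoh, a phospholipid-binding plasma protein, was at 194 to 476 in the 6 males and 19.6 to 80.6 in the 6 females. The summed signal of the 30 ran from 811 to 5942 at day 5 and from 1060 to 4652 at day 1. Naive rats had sums of 892 to 1135. Orm1, Tat and Cyp1a2 stayed under 33.2 in every saline rat.

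The hepatocyte transcripts also varied among the compound-treated rats. Alb exceeded a signal of 100, a limit set after the values were seen, in 20 of 36 of them at day 1 and in 10 of 35 at day 5, and in 0 of 6 naive rats. All 23 tested markers had a negative mean day difference there, with a median of -0.45 and 0 called. More markers were over the filter limit in the compound-treated rats with high Alb, so the 23 are not separate observations. Rat 1F104 had low Alb, unlike the other 3 day 1 females. With the mean log2 level of the hepatocyte markers as a term in the fit, an alternative added after seeing the data, 0 genes passed and 419 had an unadjusted p under 0.05. Fgg, a fibrinogen chain counted among the tubular injury markers, is also a hepatocyte product: its difference was -0.87 (SE 0.43), or -0.57 with 1F104 and -0.56 with 1M2 counted at day 5, and the part of the liver transcripts in it was not tested.

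**Figure D5:**
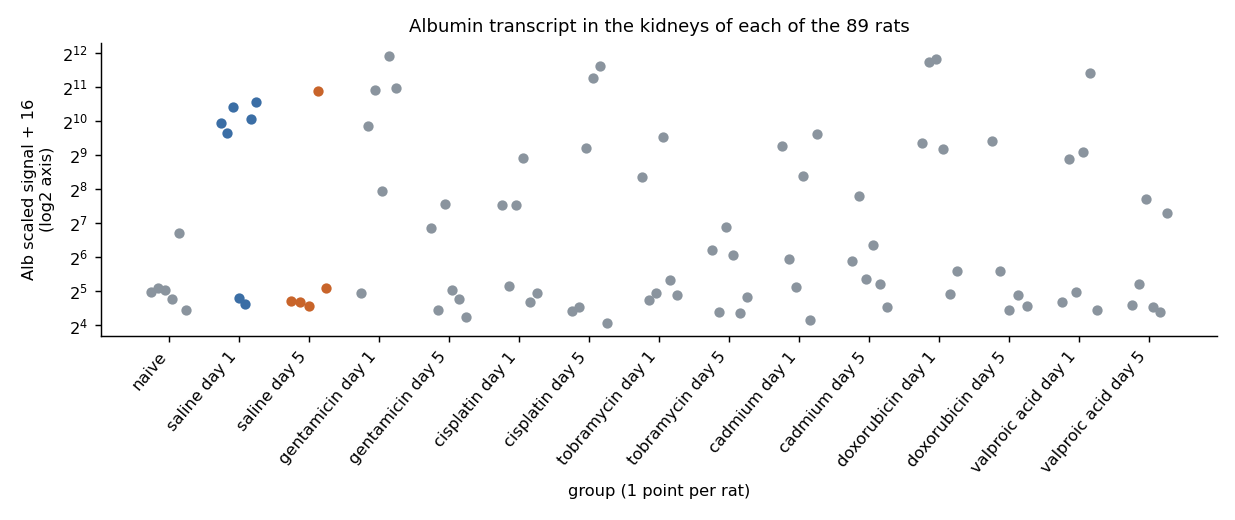
Scaled Alb signal plus 16 in each rat of the 15 groups on a log2 axis (blue, saline at day 1; orange, saline at day 5; grey, the others). In saline the rats fall at 7.79 to 18.5 or at 794 to 1855, with 5 of 7 day 1 rats and 1 of 5 day 5 rats in the upper set.

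The further genes that differed by more than 1 in size were named after their values were seen, and none passed. Tmem35b was at 68.8, 69.1, 224, 335 and 152 at day 5 and between 18.5 and 178 at day 1, a difference of 1.28 (SE 0.43, unadjusted p = 0.0109) that became 0.65 with 1M2 counted at day 5. Acsm5, an acyl-CoA synthetase, was at 208 in 1F105 and at 15.4 to 68.7 in the other day 5 rats, against 87.4 to 275 at day 1, a difference of -1.19 (SE 0.41, adjusted p = 0.790 in limma). Without array scaling Acsm5 differed by -1.43 with an adjusted p of 0.00368, the only gene to pass in that setting. Without 1F106 it differed by -0.72, and with the GAPDH ratio as a term by -0.74. Prss35, a protease-like protein, differed by -1.11, and by -0.71 without 1F106. Ucp1, the uncoupling protein of brown fat, ranged from 0.898 to 609 over the 12 rats and differed by 1.03 (SE 0.79).

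No injury or stress gene passed. Havcr1, the kidney injury molecule of damaged proximal tubules, was at 46.3, 26.9, 13.9, 28.1 and 35.1 at day 5. At day 1 it was at 226 in 1F104 and between 10.99 and 40.6 in the other 6 rats. Its difference was 0.07 (SE 0.40), and 0.70 with 1F104 counted at day 5. Lcn2, a secreted injury marker, differed by 0.09 and Clu by -0.21, or -0.08 with 1F104 counted at day 5. The heat shock gene Hspa1a, whose signal its near-identical neighbour Hspa1b may share, was 416 ± 72.9 (SD, n = 5) against 602 ± 198 (SD, n = 7), a difference of -0.36 (unadjusted p = 0.0107). Fos and Egr1, immediate early genes, differed by -0.35 and -0.14 (by -0.58 and -0.28 with 1F104 counted at day 5), and Fkbp5, a glucocorticoid-induced chaperone, by -0.33, with intervals that included 0.

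Cell type and pathway lists were described by counts, and 0 members of any list passed. Interferon response genes were higher at day 5 for 21 of 23 members with a median of 0.11, with Isg15 at 120.4 ± 34.1 (SD, n = 5) against 100.02 ± 38.3 (SD, n = 7). In the compound-treated rats the median of this list was -0.08. Endothelial markers were higher for 12 of 13 with a median of 0.10, among them the VEGF receptor Kdr at 0.28 and the junction protein Pecam1 at 0.29, which was 0.16 with 1F104 counted at day 5. Macrophage and granulocyte markers were higher for 13 of 15 with a median of 0.08. In bulk kidney, fewer cells of a type and less RNA per cell cannot be told apart. Without 1F106 the medians were 0.19 for interferon, 0.05 for endothelial and 0.09 for macrophage genes.

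Lists on the lower side were immediate early genes, with 3 of 16 higher and a median of -0.12, the renin-angiotensin and pressor genes, with 0 of 7 higher and a median of -0.11, and podocyte markers, with 2 of 9 higher and a median of -0.11. Klf4, an early response factor, differed by -0.39, Agtr1b, an angiotensin II receptor, by -0.27, and Wt1, the podocyte transcription factor, by -0.40, which was -0.22 with 1M2 counted at day 5. In the ER and integrated stress list 7 of 19 were higher, and asparagine synthetase Asns differed by -0.46 (SE 0.14, unadjusted p = 0.00661). Atf4, which controls Asns, was at 600.4 in 1F106 and 913 to 1078 in the other day 5 rats, and its difference moved from -0.32 to -0.15 without 1F106. Proximal tubule transporters, the defining genes of the kidney cortex, exceeded a signal of 33.2 in some saline rat for 30 of 30 members. Of these, 21 were higher with a median of 0.08, which was -0.01 without 1F106.

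Of 8 adrenal cortex markers, Star, Cyp11a1, Cyp11b1, Cyp21a1 and Nr5a1 stayed under 33.2, the limit of the filter, in every saline rat, and the other 3 exceeded it in some rat. The summed level of that list, 162 to 2190 at day 5 and 171 to 2685 at day 1, came with Akr1b7, which was at 994 to 2547 in females and 0.408 to 27.8 in males. Rat 1F106 had the highest summed signal of the 12 rats in 8 of 13 marker lists.

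The day difference did not pass a test of its own between the sexes. For the difference in males minus that in females 0 genes passed, and the smallest adjusted p was 0.332. At an unadjusted p under 0.05 there were 1055 of 10564 genes, above the 528.2 that an even spread of p-values would place. Bmal1 differed by -0.29 in males and -0.81 in females, Nr1d1 by 0.15 and 0.97, and Dbp by 0.68 and 0.75. Among the stress genes, Asns differed by -0.21 in males and -0.73 in females, Atf4 by -0.05 and -0.62, and Hspa1a by -0.15 and -0.60. Wt1 differed more in males, by -0.65 against -0.12. Leaving out 1F105, which leaves 1F106 as the lone day 5 female, gave 843 genes. Every other saline rat left out gave 0.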

How the data were processed

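The series holds 1-colour arrays of kidney RNA, 1 per rat, from 89 rats. The authors deposited MAS5 signals as linear intensity values, per the submitters' processing notes, for 31099 probe sets, with a MAS5 version and scaling not given in the sources used here. All arrays were brought to the same 2% trimmed mean (180.9), and log2(signal + 16) was used. Each of 14217 named genes was represented by its probe set of highest mean. Genes were tested if their signal was above 33.2, the 40th percentile over all values, in at least 5 of 12 saline arrays, which left 10564. The 57 control probe sets, 436 with several genes and 9780 with no gene listed were left out.

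Groups followed the titles. Differences were tested with limma 3.58.1 in R 4.3.3, using lmFit and a robust, trended eBayes, with a sex term and Benjamini-Hochberg adjustment at 0.05, on the 12 saline arrays and again on all 89. The compound contrast is the mean of 6 within-compound day differences. Array quality was compared with an exact permutation test. Scripts were tested on simulated data. Other steps used Python 3.11.15 and matplotlib 3.10.9. Labels mark the rats as separate animals, and their number limits the precision, since a signal holds no count.

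The genes named are, by rule, the 10 with the smallest p on each side, since none passed, all measured clock genes, 9 check genes, and in each other list the members with the smallest p. Others are said to be chosen after their values were seen. The comparison and its gene lists were chosen with earlier results of these data known. Alternatives covered pseudocount, filter, scaling, probe set rule, eBayes form, array weights, sex term, doubted labels, single sexes, the GAPDH ratio as a term and leaving out each rat. Positions and promoters come from RefSeq on GRCr8.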

Additional observations from a re-analysis of the deposited data

Results flagged for a closer look

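Values of 1 rat far from the others of its saline group were found in 20 of 246 group values examined. About 5% arise by chance where genes are not chosen by their values, but many of these were. Most often the rat was 1F106 (6) or 1M5 (5), and those of 1M5 were mainly hepatocyte transcripts and their own sum. In 1F106 at day 5 the GAPDH 3'/5' ratio was 2.99 (others 1.195 to 1.50), and Hexa, a lysosomal hexosaminidase, was 3481 (others 1521 to 1855). The probe set listed for the muscle myosin Myh1 was at 5862.5 (others 4402 to 4523). Myh4, Acta1, Ckm and Tnnt3, also skeletal muscle genes, stayed under 33.2 in every saline rat, and what the Myh1 signal reads was not tested. In the same array the stress genes Atf4 and Gadd45a were 600.4 (others 913 to 1078) and 397 (others 783 to 943), and Eif2b5 was 161 (others 185 to 187). The part of that array's quality in these values was not tested.

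In 1M5 at day 5 the hepatocyte transcripts stood out: Alb was 1855 (others 7.79 to 18.5), Rup2 941 (others 2.84 to 9.79), Cyp2c7 140.6 (others 11.7 to 25.1) and the summed hepatocyte signal 5942 (others 811 to 1320). Cry2, a clock repressor, was 121.3 in the same rat (others 173 to 197).

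The kidney injury marker Havcr1 was 226 in 1F104 at day 1 (others 10.99 to 40.6), the rat whose label is in doubt. Elsewhere at day 1, Bmal1 was 156.8 in 1F102 (others 118.5 to 132.1), Tagln, a smooth muscle gene, was 315 in 1F103 (others 101.2 to 146.1) and Gadd45a was 597.0 there (others 891 to 1078), Vnn1 was 370 in 1M3 (others 760.4 to 1125), the chemokine Ccl20 was 98.8 there (others 24.9 to 47.2), and Fgg was 10.6 in 1M1 (others 67.4 to 153). At day 5, Slc6a4 was 34.5 in 1F105 (others 64.8 to 77.3) and Dusp7 was 377 in 1M6 (others 314 to 320.1).

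Hbb differed between saline and the compounds in its day difference by 0.95 (limma, adjusted p = 0.0161), and by 0.059 without doxorubicin.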

How the results depend on the processing

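The count of 0 genes between the saline groups held in all alternatives except the deposited values without scaling, where 1 gene (Acsm5) passed and all 422 genes at an unadjusted p under 0.05 were lower, as the median of all genes moved to -0.29. In that setting Fabp3 turned to -0.0028, Kdr to -0.045, Pecam1 to -0.033, Hpd to -0.018 and Krt18 to -0.045. Unadjusted calls ran from 215 without the sex term to 1288 in females alone and 253 without 1F106. Of 3667 values of the named genes over up to 31 settings, 70 changed sign, and 81 genes had no sign change. The split of unadjusted calls was 46.7% lower with a pseudocount of 1, 51.0% with the stricter filter and 47.3% after quantile normalization.

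The compound count of 18 became 4 without scaling, 3 without the sex term, 6 without cisplatin, 7 without cadmium, 3 without doxorubicin and 1 with valproic acid alone. The count of 1 for saline minus compounds became 0 with a pseudocount of 64, without scaling, with 1F104 left out or counted at day 5, with 1F104, 1M2 and 1M4 left out, without doxorubicin and with valproic acid alone, and ranged from 0 to 1 when single saline rats were left out (0 without 1F104, 1M4, 1M6, 1F103 or 1F106). The sex difference ranged from 0 to 843, with 843 only without 1F105. The cause of these moves was not tested. No paired analysis was possible because no code is shared between rats of different groups. With 12 rats, a typical gene's 95% interval spanned 0.26 to either side, and the saline fits of a single sex rest on 6 rats each.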

Other observations

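Of the other gene groups, lysosomal genes were higher at day 5 in 15 of 19 members with a median of 0.05, extracellular matrix genes in 14 of 19 with a median of 0.07, and ribosomal protein genes in 11 of 15 with a median of 0.03. Sparc, a matrix glycoprotein, was at 931 in 1F106 and 326 to 711 in the other day 5 rats, and its difference moved from 0.47 to 0.29 without 1F106 and to 0.28 with 1F104 counted at day 5. Another Sparc probe set, with a mean saline signal of 478 against 510, differed by 0.10. In the compound-treated rats the matrix list had a median of -0.17, and Col3a1, a fibrillar collagen chain, fell by 0.43 (limma, adjusted p = 0.00509), against 0.12 in saline. Nrf2 targets were higher in 4 of 13 with a median of -0.10, and p53 targets in 5 of 12 with a median of -0.03.

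The urea transporter Slc14a2 of the inner medulla was at 689 in 1F105 and at 245 to 354 in the other day 5 rats, against 128.1 to 456 at day 1, and its difference was 0.48 (SE 0.21), or 0.74 without 1F106. Slc34a3, a phosphate transporter of the proximal tubule, ranged from 85.9 to 1229 at day 1 and from 479.9 to 1153 at day 5, with a difference of 0.98 (SE 0.60). Spp1, which encodes osteopontin, was at 971 in 1F106 and at 2036 to 4037 in the other day 5 rats, and its difference moved from -0.58 to -0.12 without 1F106 and to -0.24 with 1F104 counted at day 5.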
